A study of Homo sapiens with 16 samples.

Results

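MDA231 is a human breast cancer line of the basal B type, which lacks the hormone receptors of luminal tumours. LeptoM cells are its leptomeningeal metastatic derivative, named for the leptomeninges, the thin membranes that enclose the brain and spinal cord. The comparison described here is between LeptoM cells carrying a control hairpin (shCTL, 2 libraries) and parental MDA231 cells, which carry no hairpin (2 libraries). It covers the 14387 genes, of 17954 in the MDA231 table, whose mean value over the 8 libraries of the line was at least 10. The other 4 libraries of the table are LeptoM cells with the hairpin shLCN2_1 or shLCN2_2, 2 libraries each, and entered the fit to estimate the spread. The labels describe the LCN2 hairpins as lentiviral, and whether the LeptoM line is 1 clone is not given in the sources used here. The derivation of the LeptoM cells and the carriage of a hairpin cannot be told apart in this comparison, since parental cells carry none. The cells were grown in dishes, not taken from animals, and were lysed after 2 days. The labels do not tell whether both libraries of a group are separate cultures. The p-values therefore cover no more than the spread between the 2 libraries of a group, pooled over the 4 groups, and that spread may be technical.

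A value below is a normalised read count, the reads of a gene divided by a size factor of the library. It compares a gene with itself between libraries, and not with other genes, because it is not divided by gene length. Fold changes are differences of log2(value + 1) between LeptoM shCTL and parental cells, so 1 stands for a doubling. They are given in brackets with the standard error (SE) from limma after ±. A gene is said to have risen or fallen where its p-value, adjusted over all 14387 genes by Benjamini-Hochberg, was under 0.05. By that rule 7001 genes were called (48.7%), of which 3572 rose (24.8%) and 3429 fell (23.8%). With a change of at least 1 on the log2 scale, 1709 rose (11.9%) and 684 fell (4.75%). These percentages are the background against which each group of genes below is to be read. The groups were chosen with earlier results of these data known. Together their 1419 tested members had 34.1% higher and 24.8% lower, so a surplus of rises was already present in the chosen groups as a whole.

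Depth and base composition differed between the libraries. The parental libraries held 11592790 and 11613984 gene reads, and the shCTL libraries 43673426 and 41751486. At 3 reads a gene had a value of 8.51 or 8.94 in a parental library and of 2.15 or 2.28 in a shCTL library. Fold changes increased with the GC content of the transcript, from a median of -0.29 in the lowest of 5 equal bins of GC content to 0.60 in the highest. Between replicates the median absolute log2 difference was 0.30 in parental cells and 0.12 in shCTL, so the pooled spread may understate that of parental cells. With only the 4 libraries compared in the fit, 4382 genes were called. Replicates of 1 group also differed with GC content: in the highest bin the median log2 ratio of replicate 1 over replicate 2 was 0.68 for parental cells and 0.25 for shCTL. With this trend removed from each library, 3533 genes rose (25.1%) and 5252 fell (37.3%) among 14082 with a known GC content, so the share of higher genes among the calls is 51.0% before and 40.2% after. This removal shifted the median over all genes (0.04) to -0.09. Where the median of a group is given, it is given both ways if the values differ in sign or by over 1.5 times. Some groups are given by counts alone, and their medians may move as much. With the trend removed, the median went from 0.17 to -0.05 for TGF-beta and BMP genes and from 0.35 to 0.07 for growth factors and receptors. For sterol synthesis genes it went from -0.13 to -0.30, and for histone genes from -0.52 to -0.81. Without shCTL replicate 1 the calls were 3486, and without shCTL replicate 2 they were 4447. Unless a sentence says otherwise, the genes named as changed kept their call when any 1 of the 4 libraries was left out and when the GC trend was removed, and were in part picked for this after their values were seen.

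Marker genes of the line were present in the libraries of both groups. Of 14 tested 6 rose and 3 fell, with a median of 0.15, or -0.03 with the GC trend removed; without shCTL replicate 1, 4 rose and 2 fell, and without shCTL replicate 2, 5 rose and 2 fell. Those that fell include MSN (moesin, which ties membrane to actin; from 51521 and 49711 to 31175 and 31265; -0.70 ± 0.06, adjusted p = 0.000283) and the plasminogen activator gene PLAU (from 12258 and 11985 to 8097 and 7878; -0.60 ± 0.07, adjusted p = 0.000864, or -0.98 with the GC trend removed). VIM (vimentin) was at 180994 and 174830.0 in the parental libraries and 205369 and 207331 in LeptoM shCTL, CD44 at 54698 and 61852 in the parental libraries and 51289 and 55965 in LeptoM shCTL, and the basal receptor gene EGFR rose from 13775 and 12146 to 22617 and 22626 (0.81 ± 0.08, adjusted p = 0.000467). VIM (0.21) counts among the 6 rises by the main fit. Its call was lost with edgeR (adjusted p = 0.0572), with DESeq2 (0.0744) and in limma with the GC trend removed (0.0596). It was also lost with either shCTL library left out. CDH1, the cadherin of epithelial cells, had 0 and 0 reads in the parental libraries and 10 and 9 in shCTL, and ESR1, the oestrogen receptor, was at 8.51 and 5.96 in the parental libraries and 3.58 and 12.9 in LeptoM shCTL. Of 29 marker genes of other cell types with a row in the table, 17 passed the minimum mean; 12 of those rose and 0 fell, with a median log2 change of 0.91, or 0.38 with the GC trend removed; without shCTL replicate 1, 7 rose and 0 fell. The members that rose included the astrocyte filament gene GFAP, at 0 in both parental libraries and 74.4 and 59.9 in shCTL, and KDR, a receptor of blood vessel cells (from 167 and 206 to 657 and 693). The leukocyte gene PTPRC (2.84 and 0 in the parental libraries and 3.58 and 2.28 in LeptoM shCTL) and the endothelial gene CDH5 (2.84 and 0 in the parental libraries and 0.715 and 0.759 in LeptoM shCTL) stayed under the value of 3 parental reads in every library of the contrast. Of the 17 tested markers of other cell types, 5 had fewer than 6 reads over both parental libraries. Those 5 passed the minimum mean only through the LeptoM libraries, so the count of 12 against 0 does not show a surplus of rises. The 4 glial and neural markers tested, GFAP among them, had 2 rises and a median of 0.08, or -0.35 with the GC trend removed. What part the markers have in the results below was not tested.

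To colonise the leptomeninges a cancer cell must reach the cerebrospinal fluid, which holds little nutrient and few cells, and must live there in suspension or attached to the meninges. Basement membranes, made of laminins, type IV collagen and proteoglycans, and the integrins that bind them are the structures a cell crosses on the way. Many genes first described in growing nerve fibres, such as the semaphorins, ephrins and netrins, are also used by tumour cells for attachment and movement. Interferons are signalling proteins that switch on antiviral effector genes, and NF-kB is the transcription factor behind many inflammatory genes, among them the chemokine CCL2 and the complement protein C3.

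The rises and falls with the largest changes are drawn per library in the plot of lead genes. The 2 libraries of shCTL lay wholly above or wholly below those of the parental cells in all 266 called genes that the text names. Those genes were picked as called, and some also for this lack of overlap, so the count is no further support for them. Over all genes tested, called or not, the share without overlap was 73.6%. CST4 (cystatin S, an inhibitor of cysteine proteases; chromosome 20, 23685640 to 23689040, minus strand, GRCh38) rose from 14.2 and 8.94 in the parental libraries to 854 and 843 in LeptoM shCTL (6.11 ± 0.21, adjusted p = 9.81e-06). SPOCK1, which encodes a secreted proteoglycan (chromosome 5, 136975298 to 137598379, minus strand), rose from 11.3 and 23.8 to 983 and 992 (5.82 ± 0.30, adjusted p = 4.10e-05). The hyaluronan-degrading factor gene KIAA1199 (chromosome 15, 80779343 to 80951776, plus strand) rose from 42.5 and 17.9 to 1634 and 1569 (5.80 ± 0.33, adjusted p = 5.93e-05). In each of these 3 genes both shCTL libraries lay far above both parental libraries. With the other hairpins, SPOCK1 was at 5063 and 4826 with shLCN2_1 and 714 and 917 with shLCN2_2, and CST4 at 3018 and 3786 with shLCN2_1 and 1744 and 1568 with shLCN2_2. In both genes the libraries of shLCN2_1 stood above those of shCTL.

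Further genes of this group encode receptors and secreted proteins. NGFR, a receptor for neurotrophins (chromosome 17, 49495293 to 49515017, plus strand), rose from 31.2 and 14.9 to 1089.9 and 903 (5.46 ± 0.31, adjusted p = 5.88e-05). NEO1, the receptor neogenin, which binds netrins (chromosome 15, 73051710 to 73305206, plus strand), rose from 85.1 and 83.4 to 2542 and 2566 (4.91 ± 0.08, adjusted p = 9.30e-07), and its 2 libraries in each group were nearly equal. CCL2, the chemokine that draws monocytes (chromosome 17, 34255218 to 34257203, plus strand), rose from 31.2 and 23.8 to 908 and 963 (5.05 ± 0.14, adjusted p = 4.90e-06). The orphan receptor gene GPRC5B rose by 5.64, WDR72 by 5.18, the testis-type cytochrome oxidase subunit gene COX7B2 by 5.04, AGR2, a protein-folding enzyme gene of secretory epithelia, by 4.63, and TENM2, a teneurin gene of nerve cell contacts, by 4.57. FAM83A rose by 4.09, GPR153 by 4.09, and the phospholipid transfer gene PLTP by 4.06. TP73-AS1 (an antisense RNA, change 4.02) is uncertain because the strand setting of the counting is not given in the sources used here.

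**Figure D1:**
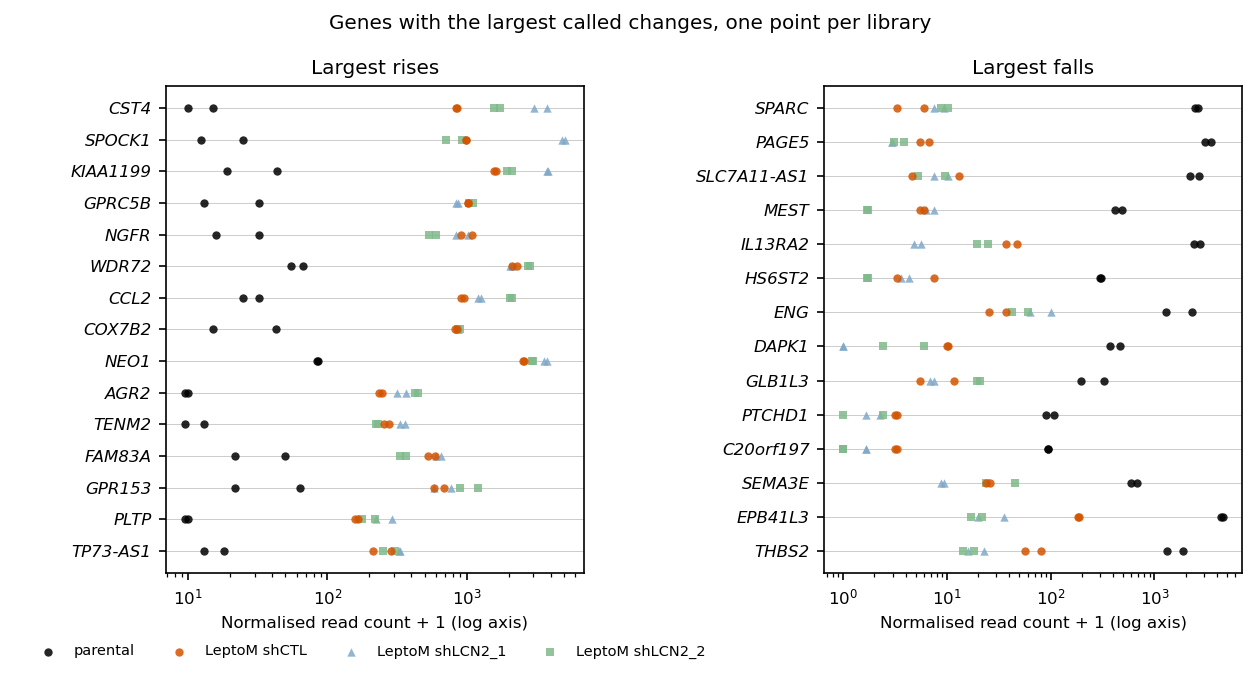
Normalised read count + 1 on a log axis (x) for the 15 genes with the largest called rises (left) and 14 of those with the largest called falls (right), among genes with at least 3 reads in every library of both groups and a mean of 50 or more in the higher one. Each point is 1 library: black, parental; orange, LeptoM shCTL; blue triangles and green squares, LeptoM shLCN2_1 and shLCN2_2. Genes were also picked for having no overlap between the parental and shCTL libraries. That the black points stand apart from the orange ones is therefore set by the choice. The gaps are widest in SPARC and PAGE5.

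Genes of the matrix, of surface receptors and of the cancer-testis type were among the largest falls. SPARC (osteonectin, a matrix protein made by mesenchymal cells; chromosome 5, 151661096 to 151687165, minus strand) fell from 2473 and 2631 in the parental libraries to 5.01 and 2.28 in LeptoM shCTL (-9.17 ± 0.33, adjusted p = 1.09e-05). PAGE5, a cancer-testis gene on the X chromosome (chromosome X, 55220355 to 55224108, plus strand), fell from 3038 and 3539 to 5.72 and 4.55 (-9.07 ± 0.26, adjusted p = 4.90e-06). The imprinted gene MEST (chromosome 7, 130486171 to 130506465, plus strand) fell from 417 and 486 to 5.01 and 4.55 (-6.29 ± 0.28, adjusted p = 2.46e-05), and IL13RA2, a decoy receptor for interleukin-13 (chromosome X, 115003975 to 115019977, minus strand), fell from 2411 and 2768 to 35.8 and 46.3 (-5.95 ± 0.23, adjusted p = 1.45e-05). With the other hairpins SPARC was at 6.53 and 8.36 with shLCN2_1 and 9.34 and 7.75 with shLCN2_2, also far below the parental libraries. ENG, which encodes endoglin, a co-receptor for TGF-beta, fell from 2286 and 1305 to 35.8 and 24.3. Other large falls were those of the heparan sulfate sulfotransferase gene HS6ST2 (-5.94, adjusted p = 0.000127), the death-associated kinase gene DAPK1 (-5.34, adjusted p = 0.000237), the semaphorin gene SEMA3E (-4.66, adjusted p = 9.53e-05), the membrane skeleton gene EPB41L3 (-4.61, adjusted p = 6.78e-05) and the thrombospondin gene THBS2 (-4.56, adjusted p = 9.04e-05). SLC7A11-AS1 fell from 2201 and 2702 to 3.58 and 12.1 and overlaps other transcripts, so it is uncertain for the same reason as TP73-AS1. GLB1L3 (-4.96, adjusted p = 0.000213), PTCHD1 (-4.95, adjusted p = 0.000454) and C20orf197 (-4.87, adjusted p = 0.000136) fell as well.

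Some genes had next to no reads in 1 group, where a fitted fold change depends on the added 1, and only a lower bound can be given. Of the 14387 genes, 91 had 0 reads in both parental libraries and 13 had 0 in both shCTL libraries. KALRN, an exchange factor for small GTPases in nerve cells (chromosome 3, 124080023 to 124726325, plus strand), had 0 parental reads and 584 and 533 reads in shCTL, which is at least 47.1-fold higher when 3 reads per parental library are taken as the floor. The interferon-induced chemokine gene CXCL11 was at 0 and 154 and 196 (at least 20.1-fold), the GABA receptor subunit gene GABRA3 at 0 and 114 and 124 (at least 13.6-fold), and MAGEA12 at 0 and 174 and 160.1 (at least 19.1-fold). In the other direction TUBA3C, a tubulin gene with near-identical copies, had 2317 and 1761 in the parental libraries and 0 reads in shCTL (at least 922-fold lower). MFHAS1 (439.6 and 435 in parental libraries, at least 198-fold lower), CSMD1 (261 and 194, at least 103-fold), SLITRK1 (184 and 176, at least 81.5-fold) and TSPYL5 (119 and 149, at least 60.6-fold) were also at 0 in both shCTL libraries.

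Because the parental libraries were shallower, genes that were low in parental cells were checked on recovered whole reads. Among the tested genes 358 had fewer than 3 reads in each parental library. The limma fit called 311 of them higher, and edgeR's quasi-likelihood test on the reads called 237. DESeq2 called 177, and with all libraries thinned to equal depth the limma fit called 265. Genes of this kind passed the minimum mean only through the LeptoM libraries, so their count says nothing about a surplus of rises. The same limit holds for members of the gene groups below that have few parental reads. LCN2, the gene of the secreted protein lipocalin-2 (chromosome 9, 128149071 to 128153455, plus strand), had a mean under the minimum and no test in the main fit. It had 3 and 1 reads in the parental libraries and 27 and 18 in shCTL, or normalised counts of 8.51 and 2.98 and 19.3 and 13.7.

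The share of members called in each direction is shown in the plot of gene groups, beside the same shares over all genes. Groups with more rises than falls include those of cadherins, ephrins, semaphorins and their receptors, the Notch pathway, laminins, class I antigen presentation, the interferon response and mitochondrially encoded transcripts. Groups with more falls than rises include ribosomal proteins, histones and the nuclear-encoded respiratory complexes.

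**Figure D2:**
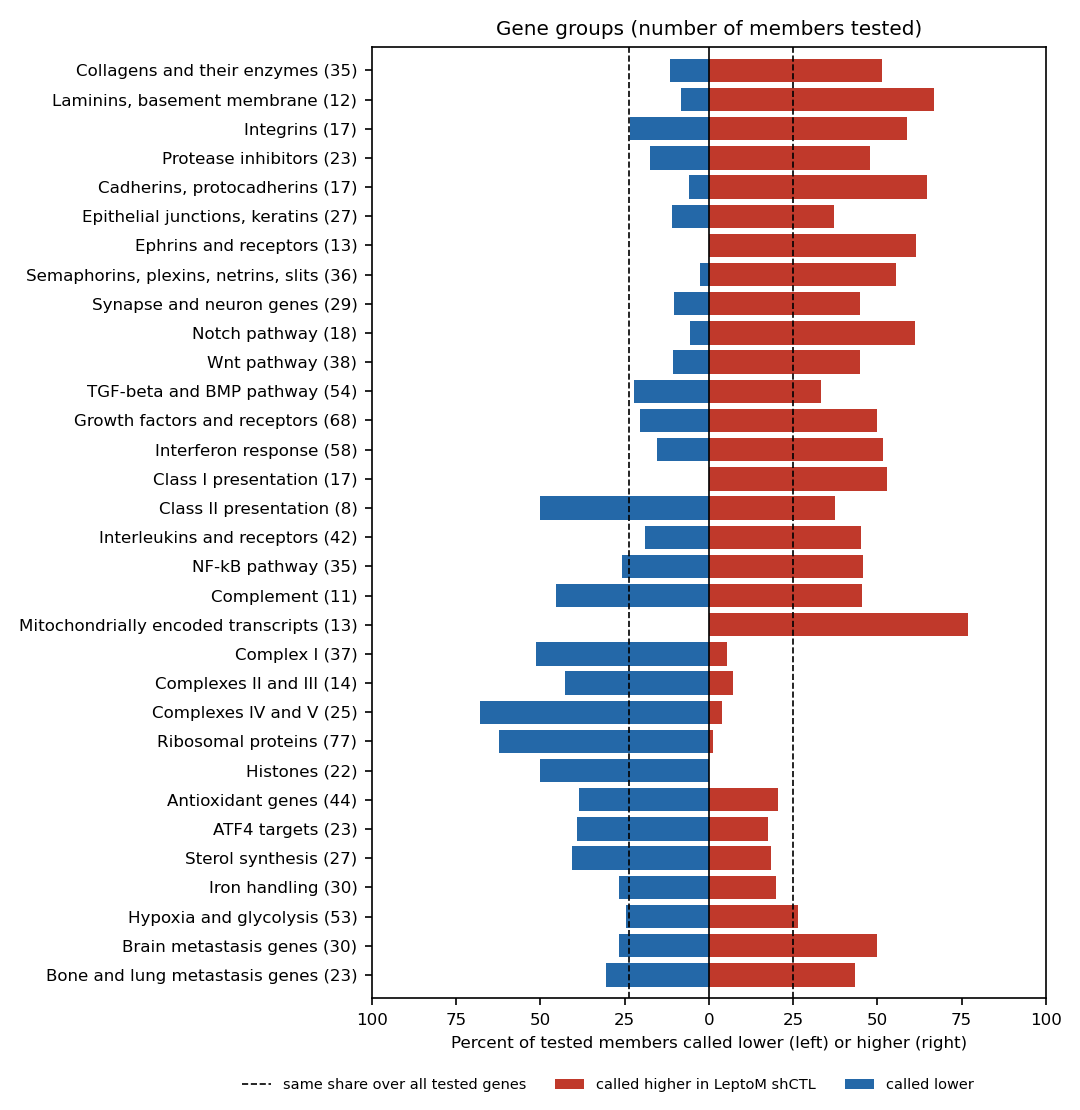
Percent of the tested members of each gene group called lower (blue, to the left) and higher (red, to the right) in LeptoM shCTL than in parental cells, with the number of members tested in brackets. The dashed lines give the shares over all 14387 genes, 23.8% lower and 24.8% higher. Bars of axon guidance and adhesion groups reach past the right line, and those of ribosomal proteins and the respiratory complexes past the left line.

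The genes of adhesion include those of the basement membrane and matrix. Of 12 laminin and basement membrane genes 8 rose and 1 fell, with a median change of 0.99, or 0.59 with the GC trend removed; without shCTL replicate 1, 4 rose and 1 fell, without parental replicate 2, 4 rose and 1 fell, and without shCTL replicate 2, 5 rose and 1 fell. LAMA4, a laminin chain of vessel walls, rose from 28.4 and 26.8 in the parental libraries to 345 and 383 in LeptoM shCTL (3.67 ± 0.13, adjusted p = 9.48e-06). LAMA3, the chain of epithelial laminins, rose from 528 and 465 to 1598 and 1509 (1.65 ± 0.10, adjusted p = 7.41e-05). LAMB1 rose from 1288 and 1153 to 2265 and 2190.0, and LAMC1 fell from 11379 and 10886 to 8156 and 8125. Of 35 collagen genes and their enzymes 18 rose and 4 fell (median 0.79, or 0.14 with the GC trend removed). Without shCTL replicate 1, 11 rose and 1 fell, and without shCTL replicate 2, 11 rose and 2 fell. COL4A5, a type IV chain of basement membranes, rose from 128 and 137 to 899 and 919 (2.77 ± 0.10, adjusted p = 1.21e-05). COL6A3 rose from 31.2 and 14.9 to 250.3 and 225 and COL6A1 from 391 and 199.6 to 2507 and 1840.3, both chains of type VI collagen, and the cross-linking enzyme gene LOXL4 rose from 335 and 286 to 1373 and 1316 (2.12 ± 0.11, adjusted p = 5.12e-05). COL5A2, a fibrillar chain, fell from 164 and 128 to 74.4 and 72.1 (-0.98 ± 0.19, adjusted p = 0.00522).

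Matricellular proteins are secreted factors that tune how cells hold to the matrix. Of 22 such genes and fibrillar partners, 9 rose and 5 fell; without shCTL replicate 1, 5 rose and 5 fell. EFEMP1, a fibulin gene, rose from 417 and 402 in the parental libraries to 2422 and 2559 in LeptoM shCTL (2.60 ± 0.08, adjusted p = 7.85e-06), FBN1 (fibrillin-1) rose from 1532 and 1120.2 to 4618 and 4459, and THBS1 rose from 10230.0 and 9018 to 32263 and 32359.6 (1.75 ± 0.08, adjusted p = 2.61e-05). THBS1 thus rose while its relative THBS2 fell to 55.1 and 78.9 from 1895 and 1317. The CCN family genes CYR61 (-0.77 ± 0.06, adjusted p = 0.00018) and CTGF (-0.67 ± 0.07, adjusted p = 0.000367) fell together with NOV (-0.90 ± 0.09, adjusted p = 0.00048). FN1 (fibronectin, change 0.18) and TNC (tenascin-C, -0.05) were not called.

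Proteases and their inhibitors changed in both directions. Of 23 inhibitor genes 11 rose and 4 fell (median 0.69, or 0.49 with the GC trend removed). Of the 23, 3 had fewer than 6 reads over both parental libraries and passed the minimum mean only through the LeptoM libraries. The cystatin genes CST1 (from 5.67 and 20.9 to 1667 and 1652) and CST2 (from 11.3 and 14.9 to 182 and 211) rose beside CST4; these 3 lie close together and are near-identical copies, so reads may be shared between them. TIMP3, an inhibitor of metalloproteases bound to the matrix, rose from 2428 and 2455 in the parental libraries to 11935 and 12484 in LeptoM shCTL (2.32 ± 0.07, adjusted p = 4.90e-06), SERPINA1 (alpha-1-antitrypsin) rose from 28.4 and 26.8 to 175 and 181, and CST7 fell from 511 and 432 to 107 and 94.8 (-2.21 ± 0.20, adjusted p = 0.000306). Among 9 metalloprotease genes 4 rose and 2 fell; the median of 0.35 turned to -0.29 with the GC trend removed, and without shCTL replicate 1, 0 rose and 2 fell. The collagenase gene MMP1 fell from 94254 and 121114 to 58372 and 61543 (-0.83 ± 0.12, adjusted p = 0.00183). MMP3 fell from 1381 and 1552 to 519 and 567 (-1.43 ± 0.12, adjusted p = 0.000194). Among proteases of the ADAMTS family, ADAMTS12 rose from 763 and 757 to 6427 and 6477 (3.08 ± 0.07, adjusted p = 2.80e-06). ADAMTS9 rose from 372 and 393 to 1374 and 1312. Cathepsin S (CTSS) rose from 519 and 691 to 1777 and 1947 (1.63 ± 0.14, adjusted p = 0.00026), whereas cathepsin L (CTSL) fell from 3418 and 4129 to 1023 and 1038 (-1.86 ± 0.11, adjusted p = 5.93e-05). The plasminogen activator gene PLAT rose from 3701 and 3086 to 13775 and 12710.1 (1.97 ± 0.13, adjusted p = 9.06e-05), and PLAUR, the receptor of the other activator, fell from 13971 and 10332 to 5006 and 4619 (-1.32 ± 0.16, adjusted p = 0.000805).

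Integrins are pairs of an alpha and a beta chain. Of 17 integrin genes 10 rose and 4 fell (median 0.72, or 0.34 with the GC trend removed). Of the 17, 3 had fewer than 6 reads over both parental libraries and passed the minimum mean only through the LeptoM libraries. Without shCTL replicate 1, 6 rose and 2 fell. The collagen-binding chains ITGA10 (from 28.4 and 23.8 to 395 and 362; 3.81 ± 0.16, adjusted p = 2.25e-05), ITGA2 (from 7105 and 8133 to 15405 and 17078; 1.09 ± 0.10, adjusted p = 0.000312) and ITGA1 (from 1259 and 1364 to 1799 and 2041; 0.55 ± 0.11, adjusted p = 0.00634) all rose; without shCTL replicate 2, ITGA1 was at an adjusted p of 0.0526. ITGB2, the beta chain of leukocyte integrins, rose from 346 and 176 to 920.4 and 800.3 (1.79 ± 0.32, adjusted p = 0.004, or 1.18 with the GC trend removed). The laminin-binding chain ITGA6 fell from 48348 and 52452 to 21222 and 23052 (-1.19 ± 0.09, adjusted p = 0.00016), and ITGB1, the partner of many alpha chains, was not called (44752 and 51529 in the parental libraries and 43702 and 47372 in LeptoM shCTL).

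Cadherins join neighbouring cells. Of 17 cadherin and protocadherin genes 11 rose and 1 fell, with a median of 1.26. Of the 17, 4 had fewer than 6 reads over both parental libraries and passed the minimum mean only through the LeptoM libraries. CDH11, a cadherin of mesenchymal cells, rose from 264 and 280.0 in the parental libraries to 3760.4 and 3995 in LeptoM shCTL (3.83 ± 0.08, adjusted p = 2.24e-06). FAT3 rose from 598 and 498 to 3356 and 3508 (2.65 ± 0.11, adjusted p = 1.88e-05). FAT4 rose from 613 and 661 to 1543 and 1514, and PCDH7 from 73.7 and 29.8 to 172 and 162 (1.81 ± 0.37, adjusted p = 0.00701); PCDH17 fell from 48.2 and 62.6 to 6.44 and 7.59. Among immunoglobulin-type adhesion genes ICAM1, to which leukocytes bind, rose from 1361 and 1093 to 5978 and 5585 (2.24 ± 0.13, adjusted p = 6.83e-05). NCAM2 rose from 108 and 119 to 799.6 and 798 (2.81 ± 0.12, adjusted p = 2.47e-05). NRCAM fell from 335 and 346 to 95.8 and 93.3 (-1.84 ± 0.19, adjusted p = 0.000454). ALCAM fell from 21671 and 26831 to 13159 and 14396. Epithelial junction and keratin genes were mixed, with 10 of 27 higher and 3 lower. The rises were led by JUP (plakoglobin, from 93.6 and 47.7 to 662 and 514; 3.11 ± 0.34, adjusted p = 0.000574), CLDN4 (from 56.7 and 53.6 to 437 and 397; 2.89 ± 0.21, adjusted p = 0.00012) and KRT19 (from 1347 and 873 to 6437 and 4876; 2.37 ± 0.27, adjusted p = 0.000687). The connexin gene GJA1 fell from 3537 and 4371 to 1269 and 1338 (-1.59 ± 0.12, adjusted p = 0.000133). CLDN1 fell from 1914 and 2154 to 864 and 880.0 (-1.22 ± 0.10, adjusted p = 0.000177). EPCAM was not called (233 and 301 in the parental libraries and 286 and 314 in LeptoM shCTL).

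Regulators of the epithelial state were low in the parental libraries. Of the 9 tested, 3 had fewer than 6 reads over both parental libraries, so the balance of rises and falls is in part set by the minimum mean. Of 9 tested 5 rose and 0 fell; without shCTL replicate 1, 3 rose and 0 fell, and without shCTL replicate 2, 3 rose and 0 fell. FOXA1 rose from 2.84 and 8.94 to 100.8 and 97.9 (adjusted p = 0.000468), with 1 and 3 parental reads, too few for a fold change, and the splicing factor gene ESRP2 rose from 42.5 and 32.8 to 137 and 148 (1.90 ± 0.18, adjusted p = 0.000324). Of 17 mesenchymal genes 9 rose and 2 fell; without shCTL replicate 1, 5 rose and 1 fell, and without shCTL replicate 2, 5 rose and 1 fell. The rises were led by S100A4, a calcium-binding protein of migrating cells (from 156 and 182 to 2089 and 2094; 3.63 ± 0.10, adjusted p = 4.90e-06). ZEB1 (change -0.13) and ZEB2 (-0.19) were not called.

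Axon guidance genes steer growing nerve fibres through semaphorins, slits, netrins and ephrins and their receptors. Of 49 tested 28 rose and 1 fell, with a median of 1.03, or 0.50 with the GC trend removed. Without shCTL replicate 1, 17 rose and 1 fell. Among receptors, besides the change of NEO1 given above, ROBO2 rose from 8.51 and 8.94 to 77.2 and 84.96 (3.08 ± 0.24, adjusted p = 0.000176). PLXNA3 rose from 199 and 116 to 673 and 505 (1.93 ± 0.30, adjusted p = 0.00238). PLXNC1 rose from 145 and 155 to 494 and 485 (1.70 ± 0.12, adjusted p = 0.00011). Among ligands SLIT2, which repels growing axons, rose from 1775 and 1743 to 5099 and 5368 (1.57 ± 0.08, adjusted p = 3.64e-05). SEMA3A rose from 598 and 646 to 1907 and 2091 (1.68 ± 0.10, adjusted p = 6.45e-05). SEMA6D rose from 14.2 and 14.9 to 91.5 and 89.5 (2.56 ± 0.17, adjusted p = 9.75e-05). The single fall was that of SEMA3E (from 587 and 670.3 to 25.03 and 22.8). The exchange factor gene TRIO rose from 3689.8 and 2696 to 10043 and 9476 (1.63 ± 0.14, adjusted p = 0.000233). Ephrins and their receptors gave 8 rises among 13 and 0 falls; without parental replicate 2, 5 rose and 0 fell, without shCTL replicate 1, 4 rose and 0 fell, and without shCTL replicate 2, 5 rose and 0 fell. In front were EPHB2 (from 839 and 456 to 2183 and 1869.9; 1.71 ± 0.27, adjusted p = 0.00268), EFNB3 (from 11.3 and 8.94 to 34.3 and 34.9; 1.68 ± 0.24, adjusted p = 0.00165, or 1.11 with the GC trend removed) and EPHA7 (from 31.2 and 29.8 to 62.9 and 69.8; 1.10 ± 0.19, adjusted p = 0.00364).

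Of 29 synapse and neuron genes 13 rose and 3 fell. Of the 29, 4 had fewer than 6 reads over both parental libraries and passed the minimum mean only through the LeptoM libraries. RELN (reelin, a secreted guide of migrating neurons) rose from 111 and 92.4 in the parental libraries to 548 and 573 in LeptoM shCTL (2.46 ± 0.13, adjusted p = 4.05e-05). The synaptic adhesion gene NRXN3 rose from 93.6 and 71.5 to 388 and 429 (2.30 ± 0.16, adjusted p = 0.000104). GABRE, a GABA receptor subunit gene, rose from 48.2 and 47.7 to 205 and 238 (2.18 ± 0.17, adjusted p = 0.00017). The glutamate receptor gene GRIK2 rose from 5.67 and 11.9 to 97.98 and 112 (3.51 ± 0.32, adjusted p = 0.000306). In parental replicate 1 GRIK2 was under the value of 3 reads (8.51), so the size of its change is uncertain. NLGN1 fell from 389 and 459 to 218 and 225 (-0.93 ± 0.13, adjusted p = 0.00171).

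Notch receptors on 1 cell are activated by Jagged and Delta ligands on the next, and switch on HES and HEY repressors. Of 18 members 11 rose and 1 fell, with a median of 0.98 (0.47 with the GC trend removed). The ligand gene JAG1 rose from 2051 and 1886 in the parental libraries to 8969.8 and 8970.2 in LeptoM shCTL (2.19 ± 0.07, adjusted p = 8.38e-06), and its replicates were nearly equal in each group. The receptor genes NOTCH4 (from 8.51 and 20.9 to 208 and 187; 3.78 ± 0.37, adjusted p = 0.00038) and NOTCH2 (from 7737 and 6745 to 11394 and 11409; 0.66 ± 0.09, adjusted p = 0.00121) rose. Among targets HES1 rose from 45.4 and 59.6 to 156 and 168 (1.62 ± 0.18, adjusted p = 0.000611). HEY1 rose from 19.9 and 17.9 to 44.3 and 47.0 (1.23 ± 0.19, adjusted p = 0.00238). HES2 rose from 11.3 and 5.96 to 108 and 108 (3.55 ± 0.28, adjusted p = 0.000174). In parental replicate 2 HES2 was under the value of 3 reads (8.94), so the size of its change is uncertain. NRARP fell from 36.9 and 32.8 to 15.02 and 19.0 (adjusted p = 0.0316), a call lost without shCTL replicate 1 (adjusted p = 0.171), without shCTL replicate 2 (0.0730) or without parental replicate 1 (0.0552). NOTCH3 was not called (8.51 and 8.94 in the parental libraries and 8.58 and 9.86 in LeptoM shCTL).

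In the Wnt pathway 17 of 38 genes rose and 4 fell. RNF43, a membrane ligase that removes Wnt receptors, rose from 5.67 and 8.94 in the parental libraries to 146 and 137 in LeptoM shCTL (adjusted p = 5.82e-05). The receptor genes FZD3 (from 39.7 and 32.8 to 162 and 182; 2.22 ± 0.17, adjusted p = 0.00016) and ROR1 (from 649 and 652 to 1669.9 and 1743; 1.39 ± 0.09, adjusted p = 8.85e-05) rose and RYK fell (from 3823 and 4388 to 2206 and 2301; -0.86 ± 0.09, adjusted p = 0.00059). Targets and nuclear factors that rose were AXIN2 (from 34.0 and 29.8 to 86.5 and 74.3; 1.31 ± 0.22, adjusted p = 0.00342), TCF7 (from 36.9 and 38.7 to 114 and 91.0) and CCND1, the cyclin D1 gene (from 14561 and 12528 to 21573 and 21595; 0.68 ± 0.09, adjusted p = 0.00131), whereas CTNNB1 (beta-catenin) fell from 19564 and 22517 to 12539 and 13254 (-0.70 ± 0.09, adjusted p = 0.000999). The secreted inhibitor DKK1 rose from 8545 and 10606 to 17086 and 18020.1 (0.88 ± 0.11, adjusted p = 0.000811).

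TGF-beta and BMP genes were divided, 18 of 54 higher and 12 lower; without shCTL replicate 1, 11 rose and 7 fell, and without shCTL replicate 2, 12 rose and 7 fell. The activin subunit gene INHBA rose from 187 and 247 in the parental libraries to 1082 and 1087 in LeptoM shCTL (2.33 ± 0.14, adjusted p = 6.83e-05), as did its inhibitor gene FST (follistatin, from 1174 and 1367 to 4659 and 4967; 1.92 ± 0.10, adjusted p = 3.62e-05). SMAD3, which carries the TGF-beta signal to the nucleus, rose from 3086 and 2732 to 7460.0 and 7259 (1.34 ± 0.08, adjusted p = 7.08e-05). The feedback inhibitor gene PMEPA1 rose from 96.4 and 71.5 to 347 and 347 (2.05 ± 0.15, adjusted p = 0.00015). The target gene ACTA2 rose from 17.0 and 26.8 to 104 and 94.1 (2.16 ± 0.25, adjusted p = 0.000718), and another target, TAGLN, fell from 258 and 155 to 57.9 and 51.6 (-1.85 ± 0.28, adjusted p = 0.00193). FSTL1 fell from 29674 and 33719 to 11763 and 12421 (-1.39 ± 0.09, adjusted p = 9.01e-05).

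Growth factors and their receptors gave 34 rises and 14 falls among 68 genes; without shCTL replicate 1, 21 rose and 9 fell, and without shCTL replicate 2, 21 rose and 12 fell. In the EGF family the ligand gene EREG (epiregulin) rose from 431 and 599 in the parental libraries to 4398 and 4797 in LeptoM shCTL (3.17 ± 0.16, adjusted p = 3.93e-05). NRG1 rose from 1668 and 1599.8 to 3550.2 and 3639 (1.14 ± 0.07, adjusted p = 7.73e-05). VEGFA, the vessel growth factor, rose from 2085 and 1939 to 5318 and 5035 (1.36 ± 0.08, adjusted p = 5.82e-05) and its receptor gene KDR by 1.86, while FGF5 fell from 14345 and 16246 to 3319.9 and 3396 (-2.18 ± 0.10, adjusted p = 2.55e-05). FGF1 fell from 632 and 602 to 167 and 176 (-1.84 ± 0.15, adjusted p = 0.000207). The neurotrophin receptor gene NTRK2 fell from 128 and 140.0 to 11.4 and 9.86 (-3.53 ± 0.28, adjusted p = 0.000176). BDNF, the ligand of NTRK2's product, fell from 2280.3 and 2413 to 1234 and 1224 (-0.93 ± 0.09, adjusted p = 0.00033). In the IGF axis IGFBP4 rose from 19646 and 17464 to 47990.0 and 47096 (1.36 ± 0.10, adjusted p = 0.000116, or 0.66 with the GC trend removed). IGFBP3 fell from 12244 and 12218 to 3276 and 3307 (-1.89 ± 0.07, adjusted p = 1.45e-05), both genes of binding proteins that hold IGF. Feedback inhibitors of the MAP kinase pathway gave 6 rises and 0 falls among 13, with DUSP6 (from 3968 and 4457 to 12282 and 12765; 1.57 ± 0.08, adjusted p = 3.64e-05) and SPRY2 (from 1339 and 1221 to 2467 and 2637; 1.00 ± 0.08, adjusted p = 0.000237) first.

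Interferon response genes were mostly higher or not called. Of 58 tested 30 rose and 9 fell, with a median of 0.58; without shCTL replicate 1, 19 rose and 4 fell. Interferon effector genes often hold the letters GAAANNGAAA near their start, on either strand, which is the core to which interferon regulatory factors bind. In RefSeq promoters (GRCh38.p14) 839 of 27305 (3.07%) held it, read as GAAANNGAAA or TTTCNNTTTC, in the 250 bases before the start. It was present in 21 of 43 tested members of the interferon list that have an entry (48.8%), in 20 of the 31 effectors (64.5%) and in 0 of the 8 receptor and signalling genes. The share was 10 of 22 among members that rose (45.5%), 3 of 7 among those that fell (42.9%) and 8 of 14 among those not called (57.1%), so the letters were present in all 3 classes. The lines below show 60 bases around the match nearest the start for members of either direction, 5′ to 3′ on the strand of the gene, with the match in capitals; the first 4 rose, CXCL10 is the chemokine described below, and the last 3 fell. The windows are OAS3 chr12:112938414-112938473, IFITM1 chr11:313975-314034, DDX60 chr4:168318771-168318830, ISG20 chr15:88638922-88638981, CXCL10 chr4:76023684-76023743, BST2 chr19:17405720-17405779, IFIT5 chr10:89414508-89414567 and PLSCR1 chr3:146544652-146544711, of which DDX60, CXCL10, BST2 and PLSCR1 are on the minus strand.
OAS3: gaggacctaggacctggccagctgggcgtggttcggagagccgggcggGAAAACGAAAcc
IFITM1: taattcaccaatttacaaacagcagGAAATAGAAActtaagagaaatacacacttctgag
DDX60: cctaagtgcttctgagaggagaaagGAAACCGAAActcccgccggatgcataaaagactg
ISG20: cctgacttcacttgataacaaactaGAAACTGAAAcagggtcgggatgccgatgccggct
CXCL10: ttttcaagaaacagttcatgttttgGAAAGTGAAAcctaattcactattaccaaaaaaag
BST2: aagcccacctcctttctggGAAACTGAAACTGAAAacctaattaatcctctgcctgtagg
IFIT5: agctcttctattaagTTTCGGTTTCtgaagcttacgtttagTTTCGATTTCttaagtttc
PLSCR1: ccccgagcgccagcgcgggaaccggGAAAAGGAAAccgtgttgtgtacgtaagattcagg

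Among effectors that rose, OASL, of the family that senses double-stranded RNA, rose from 45.4 and 41.7 in the parental libraries to 321 and 344 in LeptoM shCTL (2.91 ± 0.14, adjusted p = 3.62e-05). IFITM1, which blocks virus entry, rose from 45.4 and 44.7 to 298 and 268 (2.62 ± 0.15, adjusted p = 5.87e-05). IFIT2 rose from 295 and 483 to 1586 and 1665 (2.10 ± 0.21, adjusted p = 0.000455). TRIM22 rose from 62.4 and 65.5 to 211 and 208 (1.70 ± 0.16, adjusted p = 0.000308). GBP2 rose from 102 and 128 to 289.6 and 341 (1.45 ± 0.15, adjusted p = 0.000524). OAS3 (from 652 and 524 to 1526 and 1425; 1.33 ± 0.12, adjusted p = 0.000312), ISG20 (from 19.9 and 17.9 to 55.8 and 46.3; 1.38 ± 0.24, adjusted p = 0.0035) and DDX60 (from 187 and 268 to 446 and 476; 1.04 ± 0.18, adjusted p = 0.00374) followed. BST2 (tetherin, which holds budding viruses at the membrane) went the other way and fell from 448 and 363 to 27.9 and 28.1 (-3.80 ± 0.24, adjusted p = 8.85e-05). PLSCR1 fell from 1537 and 1817 to 1001 and 1018 (-0.73 ± 0.10, adjusted p = 0.0017). IFI16, a DNA sensor gene, fell from 4569 and 5375 to 2482 and 2613 (-0.96 ± 0.10, adjusted p = 0.000488). IFIT5 fell from 2811 and 3444 to 1920.3 and 2089 (-0.64 ± 0.13, adjusted p = 0.00612; adjusted p = 0.0538 without shCTL replicate 1). OAS1 (change -0.02) and IFI44L (-0.05) were not called. Of the signalling genes IRF1 rose from 871 and 676 to 1715 and 1387 (1.01 ± 0.15, adjusted p = 0.002). STAT2 rose from 961 and 876 to 1543 and 1582 (0.77 ± 0.09, adjusted p = 0.000813).

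Class I molecules show peptides to T cells. Of 17 class I and loading genes 9 rose and 0 fell (median 0.67, or 0.25 with the GC trend removed); without shCTL replicate 1, 4 rose and 0 fell. HLA-B rose from 1795 and 1543 in the parental libraries to 5371 and 4928 in LeptoM shCTL (1.63 ± 0.15, adjusted p = 0.000341, or 1.05 with the GC trend removed). HLA-C rose from 1591 and 1302 to 3325 and 3063 (1.15 ± 0.19, adjusted p = 0.0027, or 0.44 with the GC trend removed). The peptide transporter gene TAP1 rose from 1409.6 and 1308 to 2302 and 2255 (0.75 ± 0.09, adjusted p = 0.000742, or 0.22 with an adjusted p of 0.145 once the GC trend was removed); B2M, the light chain, was not called (20034 and 25547 in the parental libraries and 20388 and 22475 in LeptoM shCTL). HLA genes share much sequence, so reads may be shared between them. Class II genes split: CIITA, the gene of their master regulator, rose from 142 and 71.5 to 336 and 300.4 (1.65 ± 0.29, adjusted p = 0.00396). HLA-DRA fell from 1537 and 1755 to 725 and 749 (-1.16 ± 0.10, adjusted p = 0.000239). HLA-DRB1 fell from 791 and 763 to 304 and 338 and HLA-DPB1 from 196 and 196.6 to 52.2 and 41.0 (-2.06 ± 0.22, adjusted p = 0.000535).

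The chemokines had few tested members. CXCL10, like CXCL11 a ligand of the T cell receptor CXCR3, had 2 and 0 parental reads and 40 and 57 in shCTL (adjusted p = 0.00787). CCL28 rose from 113 and 119 to 475 and 551 (2.13 ± 0.12, adjusted p = 6.14e-05), and CXCL1, which draws neutrophils, fell from 9799 and 11005 to 4954 and 5171 (-1.04 ± 0.08, adjusted p = 0.000177). The neutrophil chemokine IL8 was not called (15383 and 22213 in the parental libraries and 21945 and 24018 in LeptoM shCTL). Among 42 interleukins, related ligands and receptors 19 rose and 8 fell. CSF2 (GM-CSF) rose from 102 and 77.5 to 448 and 378 (2.20 ± 0.19, adjusted p = 0.000237). CSF1 rose from 1696 and 1138 to 4534 and 4064 (1.63 ± 0.22, adjusted p = 0.0014, or 1.03 with the GC trend removed). IL6 rose from 318 and 307 to 918 and 905 (1.54 ± 0.11, adjusted p = 0.000143). IL11 rose from 973 and 992 to 1950.3 and 1967 (0.99 ± 0.10, adjusted p = 0.000451, or 0.54 with the GC trend removed). IL24 fell from 933 and 1043 to 231 and 236 (-2.07 ± 0.12, adjusted p = 6.45e-05). IL18 fell from 1117 and 1385 to 475 and 515 (-1.33 ± 0.14, adjusted p = 0.000509). IL1A fell from 1035 and 1367 to 666 and 692 (-0.81 ± 0.14, adjusted p = 0.004). Receptors for IL6-type cytokines were among the rises, with LIFR (from 848 and 1052 to 2542 and 2776; 1.49 ± 0.13, adjusted p = 0.000276) and OSMR (from 2402 and 2547 to 6000.4 and 6399; 1.32 ± 0.09, adjusted p = 8.85e-05). TNFRSF21 rose from 3971 and 3656 to 10199.9 and 10156 (1.42 ± 0.07, adjusted p = 3.64e-05).

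In the NF-kB list 16 of 35 genes rose and 9 fell; without shCTL replicate 1, 12 rose and 4 fell, and without shCTL replicate 2, 14 rose and 4 fell. Of the targets, C3, the central complement protein, rose from 3937 and 3039 in the parental libraries to 13499.7 and 12526 in LeptoM shCTL (1.91 ± 0.14, adjusted p = 0.00012). TNFAIP2 rose from 1058 and 611 to 2577 and 2378 (1.62 ± 0.26, adjusted p = 0.00258, or 0.93 with the GC trend removed). The prostaglandin synthase gene PTGS2 rose from 439.6 and 462 to 1076 and 1201 (1.33 ± 0.10, adjusted p = 0.000154), whereas SERPINB2 fell from 8681 and 10889 to 2128 and 2264 (-2.15 ± 0.13, adjusted p = 6.45e-05). MAP3K14, the kinase of the non-canonical pathway, rose from 641 and 423 to 1763 and 1438 (1.61 ± 0.23, adjusted p = 0.00159, or 1.03 with the GC trend removed). The inhibitor gene TNFAIP3 rose from 629.6 and 641 to 1419 and 1384 (1.14 ± 0.08, adjusted p = 0.000126). BIRC2 (from 18729.9 and 23321 to 9250.1 and 10099.8; -1.11 ± 0.12, adjusted p = 0.000552) and BIRC3 (from 13395 and 16547 to 7796 and 8540.1; -0.87 ± 0.12, adjusted p = 0.00151), neighbours on chromosome 11 that encode inhibitors of cell death, both fell. In the complement system the activating genes C3 and CFB (from 39.7 and 23.8 to 145 and 151; 2.23 ± 0.24, adjusted p = 0.000579) rose, and the membrane regulators CD59 (from 19376 and 24429.6 to 10025 and 10949; -1.05 ± 0.12, adjusted p = 0.000616) and CD46 (from 7683 and 9766 to 4123 and 4476; -1.01 ± 0.13, adjusted p = 0.00106) fell. Of 11 complement genes 5 rose and 5 fell; without shCTL replicate 1, 3 rose and 4 fell.

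The respiratory chain is built from subunits encoded in the mitochondrial genome and many more encoded in the nucleus. Of the 13 mitochondrially encoded transcripts 10 rose and 0 fell, with a median of 0.79. MT-ND5 rose from 9388 and 10785 in the parental libraries to 25279 and 28724 in LeptoM shCTL (1.42 ± 0.12, adjusted p = 0.00026). MT-CO1 rose from 57508 and 66985 to 112153 and 126589 (0.94 ± 0.12, adjusted p = 0.0012). The nuclear-encoded genes moved the other way. Complex I had 2 rises and 19 falls among 37 genes (median -0.35), complexes II and III 1 and 6 among 14 (median -0.38), and complexes IV and V 1 and 17 among 25 (median -0.38). Many of these falls were small, and fewer were called with 1 shCTL library: in complex I, 1 rose and 9 fell without shCTL replicate 1 and 1 rose and 11 fell without shCTL replicate 2, and in complexes IV and V, 0 rose and 6 fell and 0 rose and 9 fell in turn. NDUFB5 fell from 3650.1 and 4689 to 1654 and 1850.2 (-1.24 ± 0.14, adjusted p = 0.000589). NDUFB3 fell from 2042 and 2884 to 998 and 1142 (-1.18 ± 0.16, adjusted p = 0.00146). COX7B fell from 5647 and 7427 to 2156 and 2343 (-1.53 ± 0.14, adjusted p = 0.000311). ATP5G3 fell from 10417 and 12057 to 4541 and 4683 (-1.28 ± 0.09, adjusted p = 0.000115). SDHA (from 4069.9 and 3232 to 8433 and 7684; 1.15 ± 0.14, adjusted p = 0.000783) and NDUFS6 (from 811 and 661 to 1576 and 1399; 1.02 ± 0.15, adjusted p = 0.00167, or 0.64 with the GC trend removed) rose. Both lie on the part of chromosome 5 described below. The named falls also lie in stretches of 40 tested genes with more falls than rises. That of NDUFB5, on chromosome 3, had 27 lower and 2 higher. Those of NDUFB3 and ATP5G3, on chromosome 2, had 32 and 24 lower and 2 higher each. That of COX7B, on chromosome X, had 16 lower and 8 higher. The 73 nuclear-encoded members outside chromosome 3 had 4 rises and 40 falls. What part position has in these changes was not tested.

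**Figure D3:**
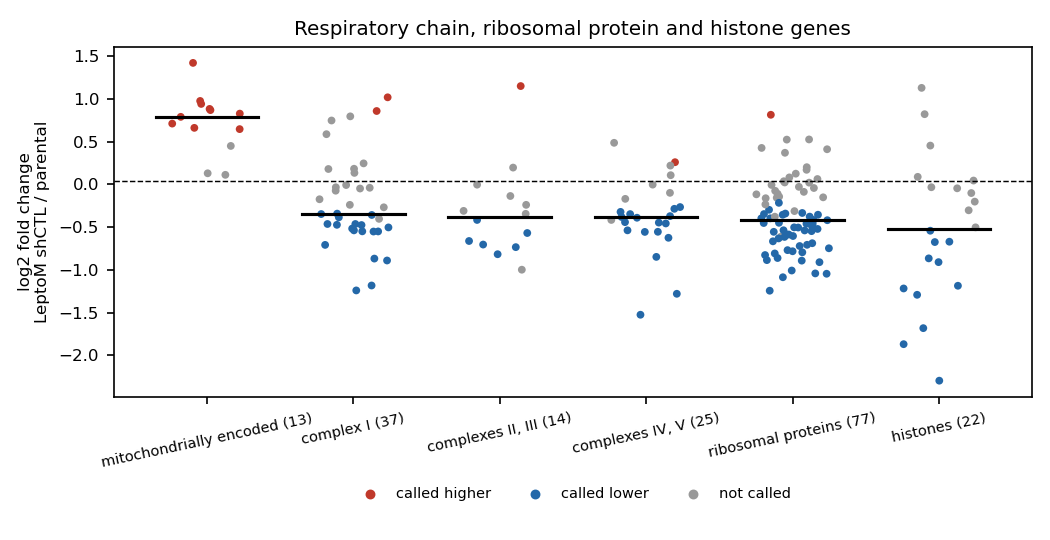
Log2 fold change of LeptoM shCTL over parental cells (y) for each tested gene of 6 groups (x, number of genes in brackets). Each point is a gene, red where it rose, blue where it fell and grey where it was not called; bars are group medians and the dashed line is the median of all 14387 genes, 0.04. The 13 mitochondrially encoded transcripts lie above the dashed line, and the medians of the other 5 groups lie below it.

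Of the groups drawn, ribosomal protein genes had the most falls in number. Of 77 tested 1 rose and 48 fell, with a median of -0.42; without shCTL replicate 1, 1 rose and 28 fell. RPS4X fell from 47744 and 60436 in the parental libraries to 21744 and 23620.0 in LeptoM shCTL (-1.25 ± 0.12, adjusted p = 0.000319). RPL32 fell from 31215 and 34699 to 15213 and 15769 (-1.09 ± 0.08, adjusted p = 0.00013). RPL24 fell from 26212 and 31937 to 13684 and 14418 (-1.04 ± 0.11, adjusted p = 0.000446). RPL37 rose from 14178 and 12819.6 to 23645 and 23756 (0.81 ± 0.08, adjusted p = 0.000402), and it too lies on that part of chromosome 5. The 7 ribosomal protein genes on chromosome 3 all fell, with a median of -1.01, and the 70 on other chromosomes had 1 rise and 41 falls with a median of -0.38. Processed copies of ribosomal protein genes are many in the genome, so their counts depend on how reads with several matches were treated, which is not given in the sources used here. Among 22 histone genes 0 rose and 11 fell. HIST1H2AC fell from 3262 and 4043 to 737 and 738 (-2.30 ± 0.12, adjusted p = 4.53e-05). HIST1H2BK fell from 6274 and 6479.8 to 1721 and 1765 (-1.87 ± 0.12, adjusted p = 9.42e-05); most histone transcripts lack a poly(A) tail and are poorly caught by the selection used here.

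Antioxidant genes held more falls than rises, 17 against 9 of 44; without shCTL replicate 1, 8 rose and 9 fell, and without shCTL replicate 2, 9 rose and 10 fell. NQO1, a quinone reductase gene and standard target of the factor NRF2, fell from 18452 and 20652 in the parental libraries to 5955 and 6209.8 in LeptoM shCTL (-1.68 ± 0.08, adjusted p = 3.02e-05). The thioredoxin gene TXN fell from 21271 and 25011 to 9397 and 10303 (-1.23 ± 0.10, adjusted p = 0.000173). Its reductase gene TXNRD1 fell from 35551 and 40541 to 18617 and 19703 (-0.99 ± 0.09, adjusted p = 0.0003). GSTM3 fell from 959 and 1195 to 116 and 114 (-3.21 ± 0.16, adjusted p = 3.62e-05). The rises were led by SOD3, the extracellular superoxide dismutase (from 14.2 and 20.9 to 147 and 121; 2.89 ± 0.30, adjusted p = 0.000484), and AKR1C1 (from 36.9 and 56.6 to 273 and 281; 2.57 ± 0.20, adjusted p = 0.00017), whose near-identical relatives may share its reads. The cystine carrier gene SLC7A11 fell from 6078 and 6745 to 3572 and 3795 (-0.80 ± 0.11, adjusted p = 0.00151). Of 23 ATF4 targets and genes of serine and asparagine synthesis 4 rose and 9 fell; without shCTL replicate 1, 3 rose and 5 fell. PSAT1, an enzyme of serine synthesis, fell from 7859 and 10260.4 to 3104 and 3179 (-1.52 ± 0.13, adjusted p = 0.000222). The asparagine synthetase gene ASNS fell from 2082 and 2649 to 819 and 891 (-1.46 ± 0.15, adjusted p = 0.000416). In contrast, the neutral amino acid carrier gene SLC1A4 rose from 176 and 128 to 605 and 653 (2.06 ± 0.16, adjusted p = 0.00018). The glutamate carrier gene SLC1A3 rose from 153 and 161 to 616 and 622 (1.97 ± 0.10, adjusted p = 4.10e-05).

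Sterol synthesis genes numbered 27, of which 5 rose and 11 fell; without shCTL replicate 1, 1 rose and 6 fell, without parental replicate 1, 10 rose and 12 fell, and without shCTL replicate 2, 1 rose and 6 fell. FDPS fell from 8835 and 10114 in the parental libraries to 4153 and 4122 in LeptoM shCTL (-1.19 ± 0.08, adjusted p = 0.000118). INSIG1 fell from 2070.4 and 2309 to 1047 and 1049.9 (-1.06 ± 0.10, adjusted p = 0.00032). FDFT1 fell from 1849 and 2294 to 1093 and 1183 (-0.86 ± 0.12, adjusted p = 0.00138). The fatty acid genes SCD (from 451 and 381 to 1521 and 1708; 1.96 ± 0.11, adjusted p = 5.75e-05), FADS1 (from 4158 and 4254 to 7833 and 8346; 0.94 ± 0.07, adjusted p = 0.000161) and CPT1A (from 1503 and 1549 to 2826 and 2803; 0.88 ± 0.08, adjusted p = 0.000255) rose. Of 30 iron genes 6 rose and 8 fell; without shCTL replicate 1, 4 rose and 5 fell, and without shCTL replicate 2, 3 rose and 5 fell. The share of iron genes called in the main fit, 46.7%, was close to the 48.7% of all genes. The storage gene FTH1 rose from 17096 and 18278 to 28019 and 29558 (0.70 ± 0.07, adjusted p = 0.000389). The uptake receptor gene TFRC fell from 37786 and 43914 to 24249.6 and 26448 (-0.69 ± 0.10, adjusted p = 0.00213). STEAP1 fell from 1517 and 2100.3 to 717 and 807 (-1.23 ± 0.16, adjusted p = 0.00109). Glycolysis and hypoxia genes were evenly divided, 14 higher and 13 lower of 53, shares close to those of all genes; without parental replicate 1, 24 rose and 15 fell, without shCTL replicate 1, 11 rose and 5 fell, and without shCTL replicate 2, 9 rose and 7 fell. EPAS1, which encodes the oxygen-regulated factor HIF-2 alpha, rose from 397 and 325 to 2866 and 2709 (2.95 ± 0.11, adjusted p = 1.56e-05), and PGK1, a glycolytic enzyme gene, fell from 42704 and 52303 to 19735 and 21221 (-1.21 ± 0.11, adjusted p = 0.00028).

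Among mitosis genes 4 of 32 rose and 12 fell; without shCTL replicate 1, 1 rose and 4 fell. MAD2L1, a spindle checkpoint gene, fell from 5417 and 6989 in the parental libraries to 2994 and 3243 in LeptoM shCTL (-0.98 ± 0.13, adjusted p = 0.0012). NUF2 fell from 5082 and 6575 to 2836 and 3057 (-0.97 ± 0.14, adjusted p = 0.00153). BUB1 fell from 14583 and 17706 to 9407 and 9538 (-0.76 ± 0.10, adjusted p = 0.0014). MKI67 rose from 15848 and 15089.8 to 21553 and 21644 (0.48 ± 0.08, adjusted p = 0.00328). Among apoptosis regulators BMF, a promoter of cell death, rose from 14.2 and 5.96 to 149 and 162 (3.93 ± 0.34, adjusted p = 0.000238), and MCL1 fell from 22340.3 and 25827 to 13829 and 14903 (-0.74 ± 0.09, adjusted p = 0.000969). In parental replicate 2 BMF was under the value of 3 reads (8.94), so the size of its change is uncertain. Of 47 homeobox and lineage factor genes 21 rose and 3 fell; without shCTL replicate 1, 13 rose and 1 fell. Those called include GATA6 (from 227 and 199.6 to 648 and 647; 1.60 ± 0.11, adjusted p = 0.00011) and POU3F2 (from 136 and 113 to 363 and 341; 1.49 ± 0.14, adjusted p = 0.000341) on the higher side and LHX4 (from 352 and 309.8 to 160.2 and 154; -1.07 ± 0.14, adjusted p = 0.0011) on the lower. Of the 47, 7 had fewer than 6 reads over both parental libraries and passed the minimum mean only through the LeptoM libraries. The balance of rises and falls is in part set by that minimum.

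Genes that other studies tied to spread from this line to brain, bone or lung were also counted. Such lists were in part chosen on derivatives of the same line. The direction reported for each gene was not part of the counts. A rise or a fall below may therefore go with or against those reports. Of 30 genes reported for brain or leptomeningeal spread 15 rose and 8 fell (median 0.90, or 0.55 with the GC trend removed); without shCTL replicate 1, 15 rose and 5 fell. Beside those given above, RARRES3 rose from 14.2 and 14.9 in the parental libraries to 89.4 and 97.1 in LeptoM shCTL (2.60 ± 0.19, adjusted p = 0.000128). PIEZO2 rose from 8.51 and 26.8 to 107 and 108 (2.74 ± 0.45, adjusted p = 0.00289). LTBP1 rose from 1685 and 1564 to 3747 and 3939 (1.24 ± 0.08, adjusted p = 8.55e-05). The sialyltransferase gene ST6GALNAC5 rose from 147 and 179 to 278 and 306 (0.84 ± 0.16, adjusted p = 0.00556). Members of the same list that fell include GJA1, CLDN1, SERPINB2 and MMP1. Of 23 genes reported for bone or lung 10 rose and 7 fell; EREG and IL11 are among the former, and SPARC, FGF5 and KYNU (from 4458 and 5491 to 2128 and 2327; -1.15 ± 0.12, adjusted p = 0.000424) among the latter. CXCR4, which appears in both lists, was not called (589.9 and 619.7 in the parental libraries and 602 and 609.9 in LeptoM shCTL).

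Cancer-testis genes, silent in most adult tissues outside the testis, included some of the largest changes in both directions. Of the 28 tested, 7 had fewer than 6 reads over both parental libraries and passed the minimum mean only through the LeptoM libraries. Of 28 tested 11 rose and 8 fell; without shCTL replicate 1, 11 rose and 3 fell, and without shCTL replicate 2, 11 rose and 5 fell. MAGEA6 had 0 and 3 reads in the parental libraries and 1028 and 948 in shCTL (adjusted p = 0.000673). SSX1 rose from 5.67 and 11.9 to 1181 and 1249 (7.03 ± 0.28, adjusted p = 1.66e-05). It was under the value of 3 reads (8.51) in parental replicate 1, so the size of its change is uncertain. MAGEA6 and SSX1 belong to families of near-identical copies, so the gene of origin is uncertain. SAGE1 had 0 parental reads and 52 and 47 in shCTL (at least 4.17-fold higher). PAGE5, given above, fell, and MAGEH1 fell from 233 and 268 to 148 and 149 (-0.75 ± 0.15, adjusted p = 0.00701; adjusted p = 0.0527 without shCTL replicate 1).

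The changes were not spread evenly along the genome. The tested genes were put in order of position (GENCODE 29, GRCh38) and cut into 340 windows of 40 genes. The first 3 windows of chromosome 5, from 0.1 to 43.5 Mb, had 91 of 120 genes higher (75.8%) and 6 lower (5%), with a median of 1.00, and 0.94 with the GC trend removed. Over the other 547 genes of chromosome 5 the counts were 104 higher and 161 lower, with a median of -0.15. Of the 16 members of the gene lists in that region 15 rose: TRIO, CDH10, SDHA, SLC1A3, SEMA5A, LIFR, NDUFS6, CDH18, ADAMTS16, MYO10, RPL37, OSMR, ADAMTS12, CCL28 and IL7R. Rises of these genes thus stand beside a shift of their whole region. Chromosome 3 showed the reverse, with 87 of 820 genes higher (10.6%) and 423 lower (51.6%) and a median of -0.44. Other chromosomes were also uneven. Chromosome 2 had 133 of 972 genes higher (13.7%) and 402 lower (41.4%), with a median of -0.28. Chromosome 13 had 39 of 253 higher (15.4%) and 94 lower (37.2%). Chromosome 15 had 179 of 460 higher (38.9%) and 26 lower (5.65%), with a median of 0.32. A window on chromosome 4, from 38.7 to 48.3 Mb, had a median of 0.79 with the GC trend removed, and 1 on chromosome 19, from 43.4 to 44.9 Mb, of -0.90. Whether copy number differs between the cells was not tested, because RNA alone was measured.

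**Figure D4:**
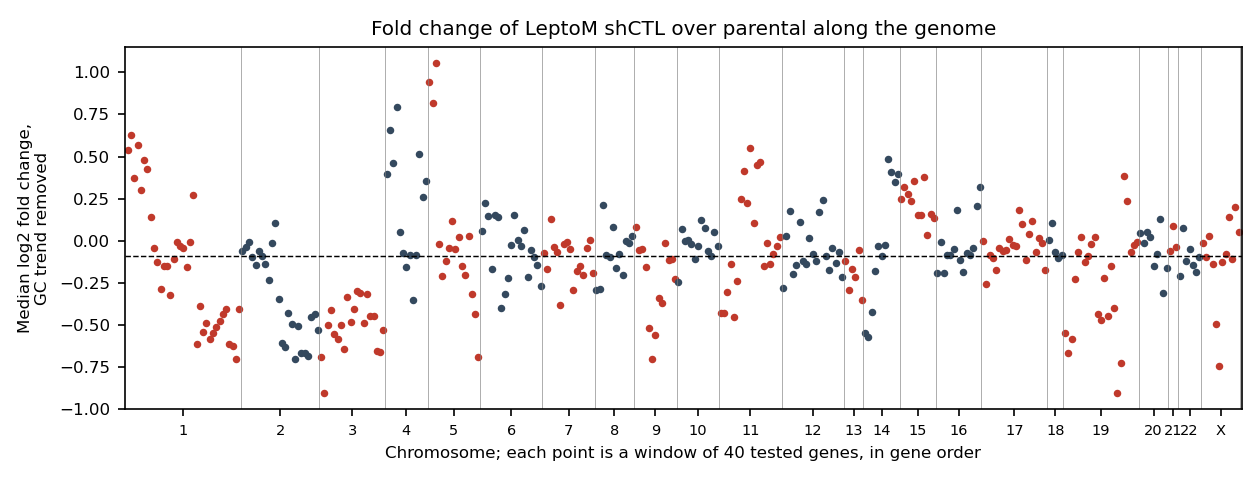
Median log2 fold change of LeptoM shCTL over parental cells with the GC trend removed (y) in windows of 40 tested genes in order along the chromosomes (x); colours alternate between chromosomes and the dashed line is the median of all genes, -0.09. The first 3 windows of chromosome 5 stand at 0.94, 0.82 and 1.05, and every window of chromosome 3 lies below the dashed line.

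The same contrast in PC9, a lung cancer line with its own LeptoM derivative and shCTL hairpin, was set beside that in MDA231 over 13392 genes with a mean of at least 10 in both tables. The difference between the 2 effects was tested in 1 limma fit of 16 libraries, and 5973 genes passed (44.6%), with the MDA231 effect above the PC9 effect in 3160 (23.6%) and below it in 2813 (21%). SPOCK1 changed by 5.82 in MDA231 and by -2.81 in PC9 (difference 8.63, SE 1.04, adjusted p = 5.11e-05). On the other side PTCHD1 changed by -4.95 and 4.87 (difference -9.82, SE 0.63, adjusted p = 4.78e-07), DAPK1 by -5.34 and 3.52 (difference -8.86, SE 0.46, adjusted p = 9.49e-08) and SEMA3E by -4.66 and 3.50 (difference -8.16, SE 0.39, adjusted p = 6.01e-08). Each of these 4 genes was also called in PC9, in the direction opposite to that in MDA231. Picking the largest differences favours opposite directions. Of the other labelled genes, GPR176 (-2.38 in PC9) and GABRA3 (-0.84) were also called there in the opposite direction. KALRN (0.59) was called in the same direction as in MDA231, and MAGEA6 (-0.26) and PLCB4 (-0.27) were not called in PC9.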

How the data were processed

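For each line the authors deposited a table of gene-level signal, that is, gene reads divided by a size factor of the library. The submitters' processing notes name HTSeq 0.5.3, DESeq2 1.22.1 and the build hg19. The aligner, gene annotation, strand setting and treatment of reads with several matches are not given in the sources used here. RNA was poly(A)-selected and libraries were stranded, per the labels' protocols. Multiplied by that factor, MDA231 values gave whole reads to a tolerance of 0.001 (100% of 143632), so reads were recovered and tested with edgeR 4.0.16 and DESeq2 1.42.0 as alternatives.

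The main test was limma 3.58.1 (R 4.3.3) on log2(value + 1) for genes with a mean of at least 10, over 8 libraries in 4 groups (4 residual and 3.04 prior degrees of freedom), two-sided. Fits without 1 library assume that the lone library of its group varies like the others. The GC content of the longest GENCODE 29 transcript, known for 97.9% of the genes, was removed per library by loess (span 0.5). The scripts were tested on simulated data. Replicates differed by more than counting noise (chi-square per degree of freedom 10.8 in shCTL and 19.2 in parental cells). Floors of 3 reads cover counting error only.

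Named genes are the 15 highest and 15 lowest called genes with a mean of at least 50 in the higher group, no overlap and at least 3 reads in every library of both groups; genes with fewer than 3 reads in each library of 1 group, up to 8 per direction; the 10 per direction with the largest difference of means; up to 10 called members per role of 40 gene lists; the 5 per direction with the largest line differences among genes called in MDA231 with a mean of at least 50 in some group of each table; and LCN2. Examples are given of each, and Y-linked genes are left out. Members and lists were chosen with earlier results of these data known. Some items are not reported here. Positions come from GENCODE 29 (GRCh38) by gene identifier and promoters from RefSeq (GRCh38.p14), not from the build of the files.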

Additional observations from a re-analysis of the deposited data

Results flagged for a closer look

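The response of LeptoM shCTL against parental cells differed between MDA231 and PC9 by a test of the difference itself in 5973 genes, from limma with Benjamini-Hochberg adjustment. Among genes also called in MDA231, with a mean of at least 50 in some group of each table, the 5 with the most positive differences (MDA231 minus PC9, log2) were GPR176 (10.11), SPOCK1 (8.63), MAGEA6 (8.11), KALRN (8.10) and GABRA3 (7.74). Among the most negative were PTCHD1 (-9.82), DAPK1 (-8.86), SEMA3E (-8.16) and PLCB4 (-8.11). GPR176 had 0 and 5 reads in the MDA231 parental libraries and 1179 and 1119 in shCTL, and its PC9 change was -2.38. PLCB4 had 134 and 166 and 1 and 0 reads, and a PC9 change of -0.27. KALRN, GABRA3, MAGEA6, GPR176 and PLCB4 have next to no reads in 1 MDA231 group, so the size of their difference depends on the added 1. The lines were normalized separately, and each effect was taken within its own table.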

How the results depend on the processing

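The count of genes called, 7001, moved by over 1.5 times when only the 4 libraries compared were fitted (4382), and leaving out 1 library at a time gave 3486 (without shCTL replicate 1) to 9081. The count with a change of at least 1 on the log2 scale, 2393, ranged from 1641 to 3589. Called members of the gene lists, 836 of 1419, ranged from 522 (without shCTL replicate 1) to 987, and the difference between the lines, 5973, from 4751 to 7435. These ranges are those of fits without 1 library. With the GC trend removed, 1034 members of the gene lists were called. The causes of these moves were not tested. Scaling, pseudocount, filter, prior, edgeR and DESeq2 kept the counts of calls within 1.5 times of the main ones. Of the limma calls 6569 were also calls of edgeR in the same direction, 93.8% of the former and 98.03% of the latter. With the GC trend removed, 6120 of 6878 calls held and 133 changed sign. Deviations of replicate 1 correlated at 0.36 between shCTL and parental cells, at 0.45 and 0.44 between these and shLCN2_2, and at -0.41 and -0.42 between these and shLCN2_1, so the numbers were not taken to pair the libraries. With the number as a replicate block 6784 genes were called, and 8728 with the block and the GC trend removed. Depth limits the parental side: 558 and 670 tested genes had fewer than 3 reads in the parental libraries. Alternatives for genes with few parental reads (DESeq2 177, limma 311, thinned reads 265, against 237 by edgeR) were chosen after seeing the data. No call on a named gene changed sign in any alternative.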

Other observations

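Structural and calcium-binding genes not covered above also changed. Of 43 actin, tropomyosin and myosin genes 9 rose and 17 fell; without parental replicate 1, 17 rose and 15 fell, without shCTL replicate 1, 8 rose and 10 fell, and without shCTL replicate 2, 8 rose and 9 fell. The myosin genes MYH10 (from 573 and 536 to 2246 and 2148; 1.98 ± 0.08, adjusted p = 1.88e-05) and MYO10, of filopodia (from 3176 and 2613 to 8577 and 8297; 1.55 ± 0.10, adjusted p = 8.62e-05), rose, and LCP1, an actin-bundling gene of blood cells, fell from 732 and 739 to 239 and 251 (-1.58 ± 0.16, adjusted p = 0.000446). TNS1 fell from 318 and 164 to 47.9 and 52.3 (-2.17 ± 0.34, adjusted p = 0.0023), and ACTB was not called (143384 and 99405 in the parental libraries and 129626 and 114117 in LeptoM shCTL). S100A3, a neighbour of S100A4, rose from 34.0 and 41.7 to 175 and 152 (2.08 ± 0.19, adjusted p = 0.000295), while S100A11 fell from 12349 and 12042 to 7161 and 6992 (-0.79 ± 0.07, adjusted p = 0.000322) and ANXA1, an anti-inflammatory annexin gene, from 36356 and 46789 to 18217 and 19629 (-1.12 ± 0.12, adjusted p = 0.000602). Among 33 chromatin genes 7 rose and 10 fell; without parental replicate 2, 4 rose and 9 fell, without shCTL replicate 1, 3 rose and 3 fell, and without shCTL replicate 2, 4 rose and 5 fell. The maintenance methyltransferase gene DNMT1 rose from 10559 and 7692 to 17874 and 16314 (0.92 ± 0.15, adjusted p = 0.00312) and the histone chaperone gene ATRX fell from 2694 and 3042 to 1581 and 1855 (-0.74 ± 0.13, adjusted p = 0.00356).

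Ranked by the difference of the means, TGM2 (transglutaminase 2, which cross-links matrix proteins) rose from 6027 and 3942 to 18261 and 16138 (1.82 ± 0.20, adjusted p = 0.000625), DAP, in the chromosome 5 region, from 8894 and 7597 to 22497 and 22022 (1.44 ± 0.09, adjusted p = 9.07e-05) and AHNAK from 13676 and 13252 to 35129.6 and 33711 (1.35 ± 0.10, adjusted p = 0.00012). HSPD1, the mitochondrial chaperonin gene, fell from 38427 and 46452 to 19830.5 and 21982 (-1.02 ± 0.11, adjusted p = 0.000609), and EIF4A2, a translation factor gene on chromosome 3, from 24734 and 31207 to 12760.2 and 13294 (-1.09 ± 0.12, adjusted p = 0.000631). The mitochondrial ribosomal RNA gene MT-RNR2 rose from 28429.5 and 35247 to 65297 and 74569 (1.14 ± 0.13, adjusted p = 0.000713), although poly(A) selection catches such RNA unevenly.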
